A study of Mus musculus with 12 samples.

Results

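Whole skin of mice with a conditional Adam17 knockout was compared with whole skin of wild type mice by sequencing of poly(A) RNA. The comparison takes 6 of the 12 libraries of the series, 3 of each genotype, chosen by the sample titles, and the other 6 are of epidermis. All mice had the strain background C57BL/6 and were 10 weeks old. The knockout, labelled ADAM17 cKO, combined floxed Adam17 alleles (ADAM17fl/fl) with Sox9-Cre, a Cre recombinase driven by Sox9, a gene of the hair follicle lineage, so cells in which the Cre was never active should keep Adam17. The wild type carries no allele or agent that the labels name, and no treatment is given for either group. The tables list 47643 genes, and the 14906 that passed edgeR's expression filter were tested. Nothing in the labels ties the 3 libraries of a genotype to separate mice, so p-values measure only how far these samples spread. The knockout libraries differ in their sex-linked reads, given below, and so are not repeats of 1 RNA sample, while the spread among the wild type libraries may be technical.

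ADAM17 is a membrane metalloprotease that cuts other membrane proteins close to the cell surface, a process called shedding. In skin its best known substrates are the precursors of the epidermal growth factor (EGF) family, which act on ErbB receptors once released, the cytokine TNF, and receptors such as those for TNF and interleukin 6. ErbB signalling in keratinocytes controls growth, the hair cycle and the late steps of cornification, in which cells cross-link small proteins of the epidermal differentiation complex under the plasma membrane to build the skin barrier.

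Depth ran from 12575661 to 16743144 expected counts a library, at which 3 reads stand for 0.179 to 0.239 CPM. The first principal component held 76.9% of the variance between libraries and separated the genotypes. Keratinocyte, fibroblast, endothelial and adipocyte markers were present in the wild type, as whole skin should show, with Krt5 at 6816, 7043 and 6502 CPM, Col1a1 at 286, 260.3 and 347 CPM, Pecam1 at 44.1, 38.1 and 41.8 CPM and Adipoq at 249, 295 and 362 CPM. CPM values here are read counts relative to library size after TMM scaling, given for libraries 1, 2 and 3 in that order. Some libraries stood apart. Y-linked genes had 0 reads in all 3 wild type libraries and in knockout library 2, but 1728 and 1034 reads in knockout libraries 1 and 3. Reads of Xist, a transcript of cells with a silenced X, numbered 660, 2193 and 1864 in the wild type and 0, 430 and 319 in the knockout, so knockout library 3 held both kinds of reads, unlike knockout library 1, and sex-linked reads partly follow genotype. Skeletal muscle genes took 10.6%, 1.58% and 4.10% of the transcript pool of the wild type libraries and at most 0.523% of a knockout library. Hair shaft and root sheath genes took 1.58% of knockout library 1, 0.0365% and 0.399% of knockout libraries 2 and 3, and at most 0.0870% of a wild type library. In bulk tissue, fewer cells of a type and less RNA per cell cannot be told apart.

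Adam17 itself (ENSMUSG00000052593.15, chromosome 12, 21323509 to 21373632, minus strand) stood at 78.3, 103 and 98.9 CPM in the wild type libraries and at 47.2, 59.5 and 59.6 CPM in the knockout libraries. Every knockout library lay below every wild type library, and 59.4% of the mean wild type level was left. Groups failed to overlap in this way for 58.8% of all genes tested, with 30.1% above and 28.7% below. The log2 fold change was -0.75 (SE 0.16, adjusted p = 0.00797, edgeR's quasi-likelihood test, Benjamini-Hochberg adjusted over every gene tested, like all adjusted p below). The counts cover the whole gene and cannot tell transcripts with the floxed part from those without it. The call did not hold with the share of Y-linked reads as a covariate (-0.58 on the log2 scale, adjusted p = 0.0858), nor without the knockout libraries that held Y-linked reads (-0.63, adjusted p = 0.17).

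Genes that carry, activate or inhibit the protease moved in both directions. Of the 13 genes of this list, Adam17 included, 5 rose and 4 fell, against 22.2% and 23.3% of all genes tested, and without knockout library 2 or 3 the number that rose was 3. Timp3, a secreted inhibitor of ADAM17, went from 145, 235 and 263 to 97.4, 57.6 and 90.2 CPM (log2 fold change -1.39, SE 0.28, adjusted p = 0.00717). Pacs2, a sorting protein reported to keep ADAM17 at the cell surface, fell by 0.79 on that scale (adjusted p = 0.00253), and Rhbdf1, which encodes the ADAM17 partner iRhom1, fell by 0.53 (adjusted p = 0.0223). Furin, the proprotein convertase that cuts the propeptide from ADAM17, rose from 63.6, 80.7 and 83.1 to 138, 161 and 162 CPM (log2 fold change 1.02, SE 0.14, adjusted p = 0.00188). Frmd8, which stabilises the iRhom complex, rose by 0.53 (adjusted p = 0.0159). The call of Rhbdf1 was lost without any 1 library other than wild type library 1 (adjusted p between 0.0584 and 0.0767), and that of Frmd8 without knockout library 2 or 3 (adjusted p = 0.051 and 0.0701). Among related proteases, Adam8 rose from 11.98, 7.01 and 11.6 to 33.1, 49.9 and 55.1 CPM (log2 fold change 2.18, adjusted p = 0.00128). Adam9, Adam15 and Adam19 did not pass the test, with log2 fold changes of -0.0017, -0.12 and -0.11.

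The ErbB ligands split. Of the 10 ligand genes tested 7 rose and 2 fell, and their median log2 fold change was 1.35 beside -0.0014 for all genes tested. Leaving out 1 library gave between 6 and 8 that rose. Nrg2, a neuregulin, did not pass (log2 fold change 0.68), although it did without wild type library 2 (adjusted p = 0.0446). The call of Nrg4, another neuregulin and 1 of the 7, was lost without wild type library 1 or 3. It was also lost without knockout library 1 or 2 (adjusted p between 0.0623 and 0.136 over these fits). Epgn, encoding epigen (ENSMUSG00000035020.11, chromosome 5, 91027464 to 91035215, plus strand), stood at 15.01, 23.1 and 20.4 CPM in wild type and at 205, 202 and 226 CPM in knockout libraries. No knockout library came near a wild type library, and the log2 fold change was 3.43 (SE 0.19, adjusted p = 7.36e-05). Hbegf, encoding heparin-binding EGF-like growth factor, went from 6.67, 4.84 and 6.71 to 72.3, 151 and 133 CPM, with knockout library 1 the lowest of its group (log2 fold change 4.29, SE 0.32, adjusted p = 0.000214). Nrg1, encoding neuregulin 1, a ligand of ErbB3 and ErbB4, went from 0.303, 0.612 and 0.192 to 10.9, 17.2 and 15.6 CPM (log2 fold change 5.23, SE 0.403, adjusted p = 0.000228). Tgfa, encoding transforming growth factor alpha, rose from 30.4, 46.8 and 42.7 to 103, 111 and 133 CPM (log2 fold change 1.53, adjusted p = 0.00116). Areg, encoding amphiregulin, rose from 9.10, 5.90 and 3.896 to 26.6, 48.8 and 35.3 CPM (log2 fold change 2.56, adjusted p = 0.00177).

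Both ligands that fell bind EGFR, like most of those that rose. Btc, encoding betacellulin (ENSMUSG00000082361.6, chromosome 5, 91357261 to 91402994, minus strand), stood at 65.3, 123 and 92.9 CPM in the wild type and 6.67, 4.98 and 7.05 CPM in the knockout. This is a 15-fold lower level with no overlap between groups (log2 fold change -3.91, SE 0.28, adjusted p = 0.000178). Egf went from 29.1, 5.18 and 14.1 to 2.73, 1.22 and 0.936 CPM, with a wide spread among the wild type libraries (log2 fold change -3.30, adjusted p = 0.00869). Over the 6 libraries Egf had the same order as the share of skeletal muscle RNA, from wild type library 1 at the top to knockout library 3 at the bottom, and the part of muscle RNA in this result was not tested.

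**Figure D1:**
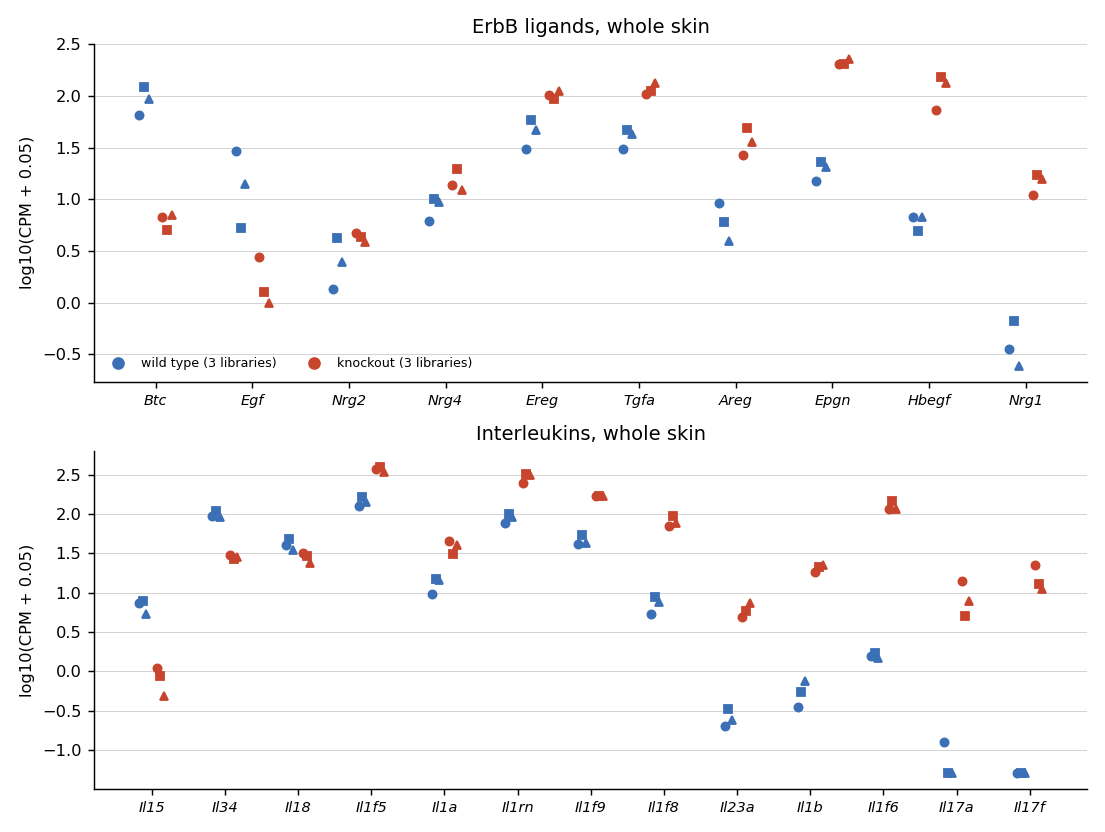
CPM on a log10 scale (0.05 CPM added) of the ErbB ligand genes (top) and of 13 interleukin genes (bottom) in each whole skin library, ordered by log2 fold change. Circles, squares and triangles are libraries 1, 2 and 3, blue for wild type and red for knockout. Btc and Egf lie lower in all knockout libraries and Epgn, Hbegf and Nrg1 higher, while among the interleukins Il15 and Il34 lie lower and Il17a and Il17f have almost no reads in the wild type.

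None of the 3 ErbB receptor genes tested passed the test. Egfr stood at 61.95, 97.7 and 112 CPM in the wild type and 104, 93.3 and 115 CPM in the knockout, with no call (log2 fold change 0.195). Erbb2, its usual partner, and Erbb3, which binds neuregulins, did not pass either (log2 fold changes -0.196 and 0.15), and Erbb4 was under the expression filter, with at most 0.241 CPM in a library. Of the 24 receptor, feedback and target genes tested, 9 rose and 3 fell, against 22.2% and 23.3% of all genes tested, with 5 lower without wild type library 1. The 3 that fell encode feedback inhibitors of receptor tyrosine kinases, and no other feedback gene of the list fell. Spry1, encoding Sprouty 1, went from 58.8, 78.3 and 68.4 to 20.2, 12.9 and 15.2 CPM (log2 fold change -2.09, SE 0.203, adjusted p = 0.00049), and Spry2 fell by 1.505 on the log2 scale (adjusted p = 0.0031). Errfi1, encoding the ErbB inhibitor MIG6, fell by 0.41 (adjusted p = 0.0489), a call lost without any 1 library other than wild type library 1 (adjusted p between 0.107 and 0.157) and with replicate number as a block (adjusted p = 0.0593). In contrast, Phlda1, Ier3 and Fosl1, which respond to ERK signalling, rose. Phlda1 went from 10.1, 6.57 and 9.39 to 45.3, 69.2 and 70.2 CPM (log2 fold change 2.83, SE 0.25, adjusted p = 0.000341). Fosl1, an AP-1 subunit, stood at 2.502, 0.779 and 1.15 CPM in the wild type and at 11.7, 36.8 and 30.95 CPM in the knockout, where library 1 was lowest (log2 fold change 4.19, adjusted p = 0.00168). Myc rose from 44.5, 45.5 and 45.6 to 82.96, 88.1 and 93.4 CPM (log2 fold change 0.96, SE 0.105, adjusted p = 0.000718).

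Messages of proteins that ADAM17 can shed also moved in both directions, 6 of 20 higher and 7 lower, against 22.2% and 23.3% of all genes tested. Cd44, the hyaluronan receptor, rose from 94.9, 109 and 126 to 366, 490.1 and 537 CPM (log2 fold change 2.08, adjusted p = 0.000416). Tnf was low in all libraries, at 0.986, 0.445 and 1.09 CPM in the wild type and 5.14, 5.95 and 4.89 CPM in the knockout (log2 fold change 2.67, adjusted p = 0.00136). Il6ra, the ligand-binding chain of the interleukin 6 receptor, fell from 124, 211 and 180.3 to 56.8, 46.7 and 51.97 CPM (log2 fold change -1.73, adjusted p = 0.00105), and Ghr, the growth hormone receptor, fell by 1.89 on the log2 scale (adjusted p = 0.000801). Notch1, another substrate, did not pass (log2 fold change -0.26).

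Among all genes tested 6780 passed the test (45.5%), 3310 higher and 3470 lower in the knockout, of which 1533 and 2372 differed by at least 2-fold. The shares called, 22.2% higher and 23.3% lower, are the background for every list count of whole skin given here. The far ends were uneven, since 83 genes were at least 100-fold higher and 15 at least 100-fold lower. In TPM, the deposited length-corrected measure that allows genes to be compared within a library, the 10 highest genes of each library held 12.3% ± 0.607 of the pool in wild type and 13.7% ± 1.11 in knockout (mean ± SD, n = 3). The 12 genes that gained most, chosen for that gain, made up 0.701%, 0.978% and 0.831% of the pool in wild type and 10.5%, 13% and 11.5% in knockout libraries. These 12 were S100a9, Sprr2a2, S100a8, Stfa3, BC100530, Krt1, Fabp5, Krt14, Calm4, Krt16, Stfa1 and Krt6a, most of them known from keratinocytes. The 12 that lost most made up 11.3%, 3.63% and 5.46% in wild type and 1.29%, 0.774% and 0.883% in knockout libraries. Among those, Acta1, Tnnc2, Ckm, Tnnt3, Tnni2, Mylpf, Pvalb, Aldoa and Myl1 are genes of fast skeletal muscle, and mt-Co3 encodes a mitochondrial cytochrome oxidase subunit. The other two were Krt77 and Fam25c, Krt77 at 4458, 7432 and 5612 TPM in wild type against 272, 189 and 559 TPM in knockout libraries. The gains were close in all 3 knockout libraries, while the summed losses had the order of the muscle share of the wild type libraries. Taken singly, Krt77, Fam25c and mt-Co3 did not have that order. Without knockout library 2 the calls of Tnnc2, Tnnt3, Tnni2, Myl1, Aldoa and mt-Co3 were lost (adjusted p between 0.0529 and 0.0986), Aldoa was also lost without wild type library 3 or knockout library 1 or 3, and mt-Co3 without wild type library 1 or knockout library 3. Without wild type library 1 the log2 fold change of Tnnc2 was -3.07 in place of -4.61, and that of Aldoa -0.91 in place of -1.74. By share of expected counts, which favours long genes, the 12 gains stood at 0.881% ± 0.110 in wild type and 7.02% ± 0.856 in knockout (mean ± SD, n = 3).

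**Figure D2:**
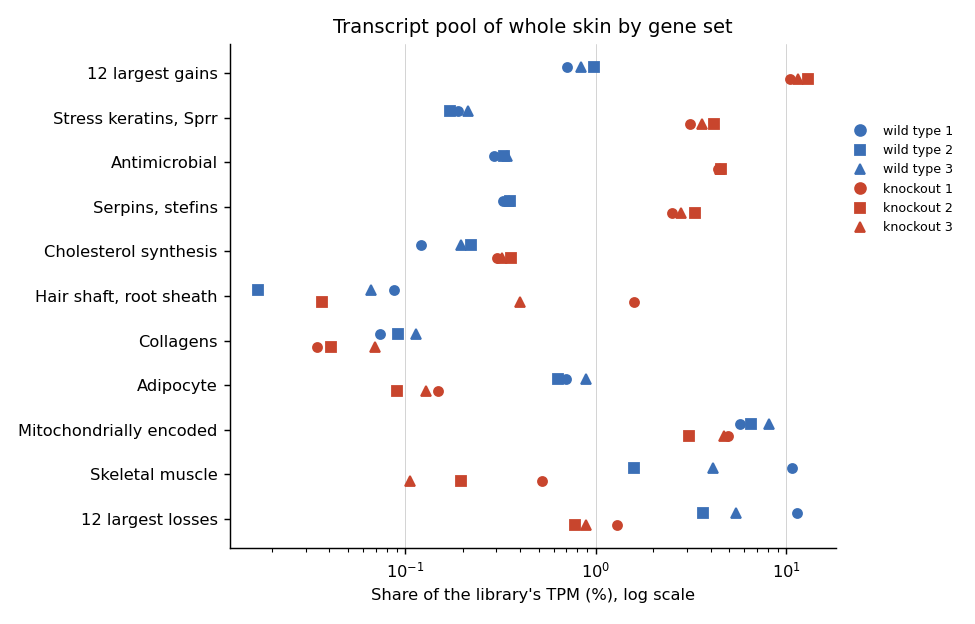
Share of each whole skin library's TPM (percent, log axis) taken by gene sets, with 1 symbol per library (circles, squares and triangles for libraries 1, 2 and 3, blue for wild type and red for knockout). Stress keratin and Sprr genes, antimicrobial genes and serpins with stefins lie far higher in every knockout library, while muscle and hair shaft genes spread widely within a genotype.

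Of the 12 largest gains S100a9, Sprr2a2 and S100a8 lie in the epidermal differentiation complex, the cluster of barrier genes on chromosome 3 (GRCm38, the assembly also called mm10, 90511034 to 93564643, from S100a1 to S100a10). Of its 121 annotated genes 70 were tested, 35 rose, 17 fell and 18 did not pass the test, against 22.2% higher and 23.3% lower of all genes tested. Summed TPM of the complex went from 22228 to 78329 (means of 3 libraries), most of it through those 3 genes, without which the sum went from 22097 to 25434 TPM. Some families moved as a whole and others split. All 12 tested Sprr2 genes (small proline-rich proteins, cross-linked into the cornified envelope under stress) and all 6 Lce3 genes (late cornified envelope proteins that bind microbes and rise in psoriasis) rose. For those with almost no wild type reads, such as Sprr2k and Lce3a with 0, a rise was nearly fixed. They could pass the expression filter only through the knockout libraries. Of the 14 Lce1 genes, envelope proteins of normal epidermis, 8 fell, 5 did not pass, and Lce1g alone rose. Of 12 tested S100 genes 6 rose and 2 fell, and of 7 fused S100 genes 2 rose and 1 fell. Lor (loricrin, the main envelope protein), Kprp, Crct1 and 2310050C09Rik fell while Ivl (involucrin) rose, a call lost without wild type library 3 or knockout library 2 (adjusted p = 0.0654 and 0.0557).

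**Figure D3:**
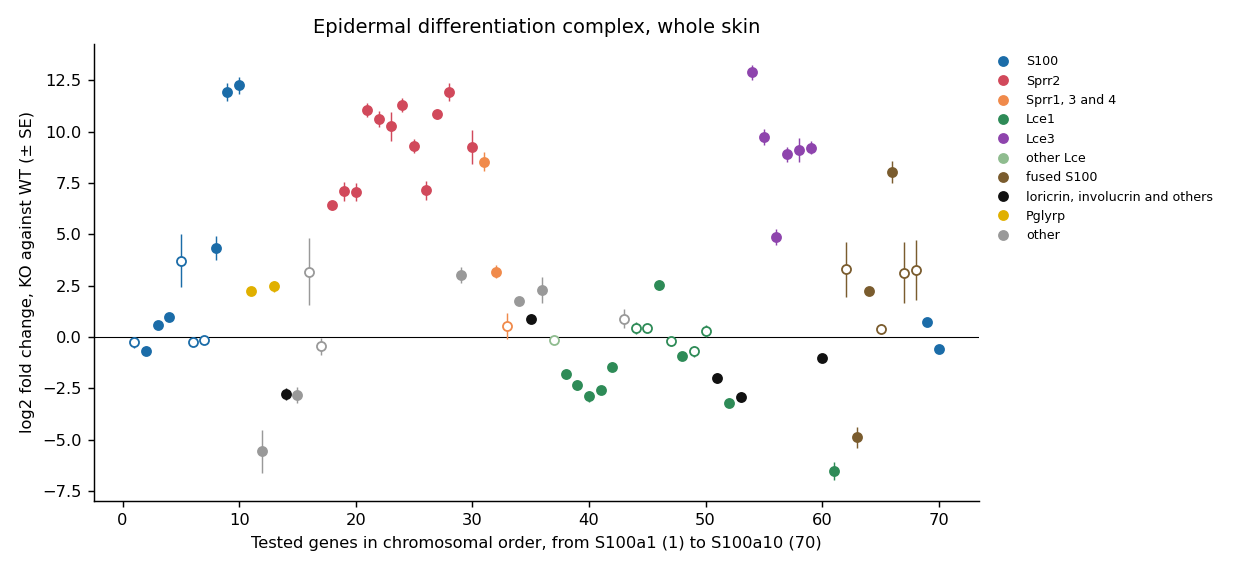
Log2 fold change in whole skin (knockout against wild type, bars ± SE) of the 70 tested genes of the epidermal differentiation complex in chromosomal order, coloured by family; filled points passed the test and open points did not. Sprr2 and Lce3 genes lie at the top while most Lce1 genes, only a few positions away, lie below 0; values of genes with under 4 reads in the wild type depend on the fit's prior count.

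The bases upstream of these genes are shown because neighbouring genes that share sequence moved together. Windows of 250 bases before the start of transcription (RefSeq, GRCm38.p6) were available for 55 of the 70 tested genes and were searched for TGANTCA, the AP-1 element, which reads the same on both strands. It was present in 7.82% of such windows of all 27025 genes, in 14 of 27 genes of the complex that rose, 2 of 12 that fell and 4 of 16 that did not pass. In Sprr2 genes it was found in 7 of 10 windows, in all 7 with its first base between 193 and 198 bases before the start, so that the near-identical copies share its place. Such copies are not independent in these counts. The element was also in 5 of 7 windows of fused S100 genes, of which 2 rose and 1 fell. In the group of loricrin and involucrin it was in 2 of 3 windows, and of the 5 genes tested there 1 rose and 4 fell. Each stretch below (GRCm38.p6) is written 5′ to 3′ along the gene's strand, 10 bases on each side in lower case and the element in capitals.
Sprr2b, chr3:92316500-92316526, plus strand: aaaggactctTGAGTCAcaagactcaa
Sprr2d, chr3:92338937-92338963, plus strand: gagtgctcacTGAGTCAcaggtctcaa
Sprr2f, chr3:92364980-92365006, plus strand: aactgaatatTGAGTCAcagtgctcaa
Sprr2h, chr3:92385477-92385503, plus strand: ggatggtctcTGAGTCActgcacttta
Sprr2i, chr3:92407788-92407814, plus strand: aagggctcacTGAGTCAcaggactgaa
Sprr2k, chr3:92432376-92432402, plus strand: gaatgtcctcTGAGTCActgtacttga
Sprr2k, chr3:92432390-92432416, plus strand: tcactgtactTGACTCAgtgactatgt
Sprr1b, chr3:92438874-92438900, minus strand: gcacctaggaTGAATCAtgtctgacag
Sprr1a, chr3:92486011-92486037, minus strand: taactaaagcTGAGTCAgagggtgaac
Sprr1a, chr3:92485981-92486007, minus strand: gggaggagggTGAGTCAtaggtgactg
Sprr2e has the same letters as Sprr2d. The element was in 0 of 6 Lce3 windows, although all Lce3 genes rose, and in 0 of 13 Lce1 windows. The same windows were also searched for TTCNNNGAA. That motif was in 8.13% of windows of all genes, in 2 of 27 genes of the complex that rose and 1 of 12 that fell. A match is a description of these letters only.

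The whole windows follow for 3 genes that moved far without that element. S100a8 encodes a calprotectin subunit, and Lce3f and Lce1m lie near each other in the complex and moved in opposite directions. Capitals mark TATAAA, searched on the gene's strand only, which stood in 8.94% of all windows and in 13 of 27 genes of the complex that rose and 4 of 12 that fell. Lce3f has no match.
S100a8, chr3:90668821-90669070, plus strand: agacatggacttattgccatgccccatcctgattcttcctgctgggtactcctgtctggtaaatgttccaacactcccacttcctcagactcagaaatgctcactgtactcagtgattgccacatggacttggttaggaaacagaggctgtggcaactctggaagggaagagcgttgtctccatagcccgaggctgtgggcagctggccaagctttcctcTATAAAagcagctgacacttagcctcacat
Lce3f, chr3:92991967-92992216, plus strand: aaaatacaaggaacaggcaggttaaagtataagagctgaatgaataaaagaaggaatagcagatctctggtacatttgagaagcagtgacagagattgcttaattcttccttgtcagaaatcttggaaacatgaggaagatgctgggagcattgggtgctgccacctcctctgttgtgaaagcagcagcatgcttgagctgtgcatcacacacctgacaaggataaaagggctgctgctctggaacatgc
Lce1m, chr3:93019062-93019311, minus strand: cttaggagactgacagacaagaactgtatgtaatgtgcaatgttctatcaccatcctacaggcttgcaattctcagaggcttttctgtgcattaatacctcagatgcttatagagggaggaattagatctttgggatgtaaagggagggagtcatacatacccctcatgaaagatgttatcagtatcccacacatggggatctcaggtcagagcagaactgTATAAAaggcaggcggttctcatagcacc
Lce3f (chromosome 3, 92992226 to 92993426, plus strand) stood at 0.152, 0.167 and 0.447 CPM in the wild type and at 162, 160.4 and 152 CPM in the knockout (log2 fold change 9.22, SE 0.31, adjusted p = 1.32e-05). Lce1m (chromosome 3, 93017810 to 93019060, minus strand) stood at 1645, 1943 and 1209 CPM in the wild type and at 9.97, 16.3 and 25.8 CPM in the knockout (log2 fold change -6.52, SE 0.44, adjusted p = 0.000134). The groups did not overlap for either gene.

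Within the Sprr2 family the copies reached very different levels. Sprr2a2 took most, at 14197, 16924 and 15408 TPM in the knockout libraries and 119, 64.9 and 182 TPM in the wild type. Sprr2i went from 0.152, 0.0557 and 0.0639 to 170.1, 181 and 183 CPM (log2 fold change 10.88, SE 0.24, adjusted p = 8.52e-06). Sprr2k had 0 reads in the wild type and 3.22, 7.504 and 5.398 CPM in the knockout, at least 80.5-fold higher against 3 reads over the group. Copies of the Sprr2, Lce and Stfa families are nearly identical, so how RSEM split reads between them is uncertain. Sprr4, another small proline-rich gene, did not pass (log2 fold change 0.54). Flg2, a fused S100 protein of the granular layer, was among the largest falls of the complex with 482, 805 and 591 CPM in wild type and 11.6, 14.6 and 37.5 CPM in knockout (log2 fold change -4.88, SE 0.52, adjusted p = 0.000664).

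Keratins of stressed epidermis rose, while other epidermal keratins split. In the list that joins stress keratins with Sprr genes 17 of 18 rose. That count is not of keratins alone. It repeats Sprr genes of the complex given above, and for those with almost no wild type reads a rise was nearly fixed. Krt6a stood at 320.4, 218 and 327 CPM in wild type and 3664, 6944 and 4709 CPM in knockout (log2 fold change 4.15, adjusted p = 0.000253). Krt16 stood at 65.4, 17.5 and 48.4 CPM in wild type and 3861, 5905 and 4437 CPM in knockout (log2 fold change 6.76, adjusted p = 0.000323). Both had their highest level in knockout library 2. Of the other 14 epidermal keratins 3 rose and 6 fell, with 5 higher without knockout library 3, 6 higher and 4 lower without the knockout libraries that held Y-linked reads, and 6 and 5 with the Y-linked share as a covariate. Krt1, the early differentiation keratin, rose from 2381, 2971 and 2409.6 to 18389.5, 20704 and 17644 CPM (log2 fold change 2.87, SE 0.23, adjusted p = 0.000258). Krt10, with which its protein pairs, did not pass, at 13561, 15379 and 11929.6 CPM in wild type and 15250.4, 18666 and 16186 CPM in knockout (log2 fold change 0.29). Among basal keratins, Krt14 rose from 4201, 4060.2 and 3392 to 9467, 13117 and 10232 CPM (log2 fold change 1.49, adjusted p = 0.00232) and its partner Krt5 did not pass (log2 fold change 0.35). Krt77, another type II keratin, fell from 11644, 14582 and 10404 to 639, 451 and 1266 CPM (log2 fold change -3.96, adjusted p = 0.000777). Krt15, a keratin of bulge and basal cells, fell from 4413, 4430.2 and 3555 to 619.7, 561 and 562 CPM (log2 fold change -2.83, SE 0.18, adjusted p = 0.000113).

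Of 30 proteases, inhibitors and cross-linking enzymes that shape the cornified layer 22 rose and 3 fell, with a median log2 fold change of 1.68. Klk13, a kallikrein, stood at 1.29, 0.779 and 1.53 CPM in the wild type and 410.04, 571 and 499 CPM in the knockout (log2 fold change 8.69, SE 0.31, adjusted p = 1.54e-05). Klk9, of the same gene cluster, went from 25.3, 27.8 and 22.8 to 222, 272 and 225 CPM (log2 fold change 3.24, adjusted p = 3.75e-05), and Klk12 from 0.455, 0.167 and 0.383 to 20.02, 35.2 and 24.5 CPM (log2 fold change 6.32, adjusted p = 9.82e-05). Klk5, which starts the kallikrein cascade, went the other way, from 203, 196 and 154 to 111, 93.97 and 89.04 CPM (log2 fold change -0.91, SE 0.15, adjusted p = 0.00356). Spink5, which encodes their inhibitor LEKTI, did not pass (log2 fold change -0.203), although it did without wild type library 1 (adjusted p = 0.0474). Prss27, a serine protease of stratified epithelia, rose from 3.87, 2.12 and 3.002 to 164, 134 and 141 CPM (log2 fold change 5.62, adjusted p = 2.91e-05). Padi2, a citrullinating enzyme also made in muscle, fell from 96.5, 27 and 55 to 8.199, 6.85 and 3.599 CPM (log2 fold change -3.26, adjusted p = 0.00292), and its wild type libraries had the order of their muscle share.

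Protease inhibitors of the serpin B and stefin families rose more often than they fell, 12 of 22 higher and 4 lower (2 lower without any 1 of the knockout libraries). Serpinb3a, the mouse counterpart of the squamous cell carcinoma antigens, stood at 0.303, 0.724 and 0.319 CPM in wild type and at 341, 615 and 441 CPM in knockout (log2 fold change 9.95, SE 0.43, adjusted p = 2.88e-05). Stfa1, a cysteine protease inhibitor, went from 2.199, 0.612 and 1.21 to 524, 679.9 and 508 CPM (log2 fold change 8.76, adjusted p = 7.26e-05). Serpinb12 rose from 28.4, 23.5 and 26.6 to 303, 504 and 385 CPM (log2 fold change 3.93, adjusted p = 8.28e-05). Serpinb7, whose loss causes a palmoplantar keratosis, fell from 211, 326 and 255 to 63.1, 33.8 and 59.02 CPM (log2 fold change -2.35, SE 0.28, adjusted p = 0.000987), and Serpinb5 did not pass (log2 fold change 0.22).

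Genes of cell contacts changed in both directions. Gap junction genes of hyperproliferative epidermis rose. Gjb6, encoding connexin 30, went from 1.97, 1.61 and 2.49 to 58.8, 93.7 and 72.99 CPM (log2 fold change 5.21, SE 0.26, adjusted p = 5.52e-05), and Gjb2, encoding connexin 26, from 13.04, 3.34 and 10.2 to 327, 455 and 443 CPM (log2 fold change 5.53, adjusted p = 0.000424). Gja1, encoding connexin 43, the main connexin of resting epidermis, rose less, by 1.77 (adjusted p = 0.000405). Gjb5 fell from 147, 159.7 and 113 to 50, 34.7 and 41.5 CPM (log2 fold change -1.73, adjusted p = 0.000755). Some tight junction genes fell, with Cldn23, a claudin, at 49.97, 60.7 and 49.8 CPM in wild type and 16.7, 12.8 and 16.8 CPM in knockout (log2 fold change -1.79, SE 0.16, adjusted p = 0.000394). Cldn1, the claudin essential for the barrier, did not pass (log2 fold change -0.24). In all 7 of 21 tight and gap junction genes rose and 6 fell, against 22.2% and 23.3% of all genes tested, the latter near its share. Of 17 desmosome genes 2 rose and 1 fell, both below those shares. The counts were 4 higher and 3 lower without wild type library 1, 4 higher with replicate number as a block and 7 higher by DESeq2. Dsg1a, a desmoglein of upper layers, fell from 884, 1659.7 and 1494 to 589, 435 and 496 CPM (log2 fold change -1.41, adjusted p = 0.00524) while its paralog Dsg1b rose from 28.1, 69.1 and 71.4 to 149, 197 and 140 CPM (log2 fold change 1.52, adjusted p = 0.0115), both subject to how reads of near-identical copies were split. At the base, 11 of 24 basement membrane and hemidesmosome genes fell. Col4a1 and Col4a2, the collagen IV chains, fell (log2 fold changes -1.61 and -1.88, adjusted p = 0.000887 and 0.000549), Nid2, encoding nidogen 2, went from 8.87, 11.2 and 15.6 to 1.77, 1.39 and 1.73 CPM (adjusted p = 0.000489), and Itga6 and Itgb4, the integrin of hemidesmosomes, did not pass (log2 fold changes -0.026 and -0.22), although Itgb4 did without wild type library 1 (adjusted p = 0.0206).

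Lipid synthesis genes mostly rose. Of 23 genes of the cholesterol pathway 19 rose and 0 fell, with a median log2 fold change of 1.04. By DESeq2 0 fell, by limma-voom 0, and without wild type library 1, 1. At an unadjusted p under 0.05, 1 fell. Idi1, the isoprenoid isomerase, rose from 81.8, 142 and 121 to 485, 502 and 499 CPM (log2 fold change 2.11, adjusted p = 0.000555), Ebp, a sterol isomerase, by 1.31 (adjusted p = 0.000861), and Mvd, a decarboxylase of mevalonate, by 1.25 (adjusted p = 0.000906). Wild type library 1, rich in muscle RNA, had the lowest level of Idi1 among the wild type libraries, and no knockout library overlapped any wild type library for this gene. Of 31 ceramide and barrier lipid genes 17 rose and 3 fell (6 without wild type library 1). Elovl7, a fatty acid elongase, went from 46.4, 60.7 and 59.7 to 282, 276 and 274 CPM (log2 fold change 2.32, SE 0.14, adjusted p = 9.92e-05), and Degs1, the desaturase that makes ceramide, from 92.97, 105 and 93.5 to 292, 364 and 341 CPM (log2 fold change 1.77, adjusted p = 0.000222). Aloxe3, a lipoxygenase of the barrier, fell from 35.1, 52.04 and 36.7 to 24.1, 23.5 and 21.02 CPM (log2 fold change -0.85, adjusted p = 0.00851).

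Enzymes of sebum wax synthesis rose as well, 13 of 23 fatty acid and sebum genes being higher and 3 lower (1 lower without wild type library 3 or knockout library 2 or 3). Awat1, which esterifies fatty alcohols, went from 18.7, 22.1 and 21.4 to 185, 241 and 167 CPM (log2 fold change 3.25, SE 0.18, adjusted p = 7.46e-05). Far1, which reduces fatty acids to alcohols, rose from 18.3, 23.6 and 24.7 to 121, 141 and 119.6 CPM (log2 fold change 2.52, adjusted p = 0.000107) and Elovl3 from 40.6, 65.6 and 55.6 to 542, 839 and 536 CPM (log2 fold change 3.57, adjusted p = 0.000222). Scd1, the main desaturase of sebocytes, and Fasn did not pass (log2 fold changes 0.32 and 0.22). Vitamin A handling shifted in a similar way, 13 of 24 retinoid genes higher and 7 lower (4 lower without knockout library 2 or 3). Fabp5, a carrier of fatty acids and retinoic acid, rose from 358, 419 and 386 to 3569.9, 5873 and 4244 CPM (log2 fold change 3.56, SE 0.25, adjusted p = 0.000152). Rbp2, which binds retinol inside cells, went from 11.1, 7.74 and 8.05 to 113, 188 and 147 CPM (log2 fold change 4.06, adjusted p = 0.000105). Aldh1a1 and Rbp4, made outside the epidermis too, fell (log2 fold changes -3.35 and -3.05, adjusted p = 0.00194 and 0.00155).

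Transcription factors of the ETS family were among those that rose most. Ehf (ENSMUSG00000012350.15, chromosome 2, 103263433 to 103303278, minus strand), an epithelial ETS factor, stood at 12.3, 11.4 and 15.1 CPM in the wild type and 299, 338 and 314 CPM in the knockout, 24.5-fold higher (SE of the log2 value 0.16, adjusted p = 1.51e-05). Elf3, a related factor of inflamed epithelia, went from 0.531, 0.111 and 0.8304 to 27.01, 53.9 and 48.2 CPM (log2 fold change 6.47, adjusted p = 0.00033), and Elf5, known from glandular epithelia, from 1.896, 0.612 and 1.41 to 35.7, 25.4 and 25.4 CPM (log2 fold change 4.49, adjusted p = 0.000325). Gata3, needed for hair follicle and barrier, fell from 245, 335 and 269 to 113, 67.3 and 99.5 CPM (log2 fold change -1.603, SE 0.22, adjusted p = 0.00173). Trp63 and Sox9, which mark basal cells and the lineage of the Cre driver, did not pass (log2 fold changes -0.29 and -0.25), although Trp63 did without wild type library 1 (adjusted p = 0.018). Of all 39 epidermal factors 14 rose and 6 fell, against 22.2% and 23.3% of all genes tested (3 lower without wild type library 2 or knockout library 2 or 3).

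Genes of the hair follicle stem cell region fell more often than they rose, 9 of 20 lower and 5 higher (3 higher without wild type library 1 or 2 or knockout library 2 or 3). Besides Krt15, Cd34, a bulge marker that endothelial and fibroblast cells share, fell from 152, 215 and 206 to 38.7, 27.6 and 49.3 CPM (log2 fold change -2.31, SE 0.25, adjusted p = 0.000672), and Fgf18, a growth factor of resting follicles, from 9.48, 15.1 and 13.9 to 3.296, 1.79 and 2.02 CPM (log2 fold change -2.43, adjusted p = 0.00118). Plet1, a marker of the follicle junctional zone, rose from 43.5, 36.01 and 41.1 to 248, 299.7 and 329 CPM (log2 fold change 2.86, SE 0.16, adjusted p = 7.42e-05). Lgr5, a bulge stem cell marker, did not pass (log2 fold change -0.12). In the BMP, TGF-beta, hedgehog and FGF list 17 of 34 fell and 7 rose. Bmp2, which holds follicles at rest, fell from 22.5, 34.6 and 31.6 to 12.1, 9.14 and 10.1 CPM (log2 fold change -1.501, adjusted p = 0.00168), and Nog, its antagonist noggin, from 3.94, 4.17 and 3.26 to 0.563, 0.734 and 1.15 CPM (log2 fold change -2.19, adjusted p = 0.00205). Skil, a TGF-beta target, rose from 12.5, 16.98 and 19.1 to 61.2, 63.5 and 70.6 CPM (log2 fold change 2.005, adjusted p = 0.000379). In the Wnt list 13 of 36 fell and 6 rose, against 23.3% and 22.2% of all genes tested. Rspo3, an R-spondin that amplifies Wnt signals, went from 9.18, 17.6 and 8.495 to 0.482, 1.06 and 0.07198 CPM (log2 fold change -4.47, SE 0.66, adjusted p = 0.00216), and Wnt3 fell by 1.58 on the log2 scale (adjusted p = 0.00284). Axin2, a common Wnt target that the rule for named genes does not choose and was picked after its values were seen, stood at 35.6, 53.7 and 55.6 CPM in wild type and 28.1, 21.7 and 24.5 CPM in knockout (log2 fold change -0.97, adjusted p = 0.00804). Of 20 Notch genes 8 fell and 2 rose, with 5 lower without wild type library 2 or 3 or knockout library 2, and Dll1 fell from 30.2, 43.02 and 38.3 to 17.4, 10.4 and 14.3 CPM (log2 fold change -1.403, adjusted p = 0.00307). Of 16 Eph receptor and ephrin genes 6 fell and 3 rose, against 23.3% and 22.2% of all genes tested, with 2 lower without knockout library 3. Epha2, an ephrin receptor that ErbB signalling raises in keratinocytes, was among those that rose, from 36.9, 45.4 and 47.3 to 136, 184 and 186 CPM (log2 fold change 1.96, SE 0.17, adjusted p = 0.000355).

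Hair shaft and inner root sheath genes spread widely between libraries of 1 genotype. Of 36 tested 6 passed the test, all higher, and the number ran from 1 without wild type library 3 or knockout library 1 to 18 without knockout library 2, with 32 when replicate number was a block. Leaving out any other library gave 3. The balance turned in the sex-linked settings, with 0 higher and 3 lower without the knockout libraries that held Y-linked reads, and 1 higher and 3 lower with the Y-linked share as a covariate. Krtap15, a hair keratin associated protein, stood at 4.47, 0 and 4.22 CPM in wild type and 594, 5.71 and 69.6 CPM in knockout libraries. Krt35, a hair shaft keratin, stood at 9.93, 0.223 and 4.22 CPM in wild type and 169, 21.9 and 42.9 CPM in knockout. Both were called, and both calls were lost without wild type library 3 or knockout library 1 (log2 fold changes 6.29 and 4.05 with all libraries, 3.74 and 2.79 without knockout library 1), and that of Krtap15 also without wild type library 1 or 2. Library 1 was highest and library 2 lowest in each genotype for both genes. Foxn1, the hair and nail keratinization factor, rose from 10.99, 11.2 and 12.2 to 39.9, 18.5 and 24.1 CPM (log2 fold change 1.26, adjusted p = 0.0101). The hair cycle stage of the mice is not given in the labels, and its part in these values was not tested.

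Interleukin genes rose more often than they fell. Of 44 cytokine genes 28 were tested, and of those 19 rose and 3 fell, against 22.2% and 23.3% of all genes tested. The 3 that fell were Il15, Il34 and Il18, and the median log2 fold change was 2.48. Genes with almost no wild type reads could pass the expression filter only through the knockout libraries, so a rise was nearly fixed for them. Il1f6, encoding interleukin 36 alpha (ENSMUSG00000026984.4, chromosome 2, 24215418 to 24225702, plus strand), stood at 1.52, 1.67 and 1.41 CPM in the wild type and 117, 148 and 116 CPM in the knockout, 82.4-fold higher (log2 fold change 6.36, SE 0.18, adjusted p = 1.32e-05). Il1f8, encoding interleukin 36 beta, went from 5.23, 8.74 and 7.54 to 70.8, 94.7 and 76.7 CPM (log2 fold change 3.49, adjusted p = 0.000125). The antagonist of the IL-36 receptor, Il1f5, rose from 125, 166 and 141 to 376, 402 and 339 CPM (log2 fold change 1.37, SE 0.15, adjusted p = 0.000739). It lies outside the rule for named genes and was chosen after its values were seen, as were Il1rn, Il17a, Il17f and Il22 below. Il1b went from 0.303, 0.501 and 0.703 to 18.5, 20.96 and 22.4 CPM (log2 fold change 5.31, adjusted p = 6.87e-05), and its receptor antagonist Il1rn from 77.8, 100.4 and 91.2 to 245, 319 and 316 CPM (log2 fold change 1.71, adjusted p = 0.000456).

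Il17f had 0 reads in the 3 wild type libraries and stood at 22.3, 12.9 and 11.2 CPM in the knockout, at least 229.5-fold higher against 3 reads over the group (adjusted p = 0.000576). Il17a had 1 read in the wild type and 13.99, 4.98 and 7.77 CPM in the knockout, a ratio of 400.3 with an exact 95% counting interval from 71.4 to 15856 (adjusted p = 0.00049). Knockout library 1 was highest for both. Il23a, the subunit that makes interleukin 23, went from 0.152, 0.278 and 0.192 to 4.903, 5.79 and 7.41 CPM (log2 fold change 4.78, SE 0.34, adjusted p = 0.000178). Il22, another cytokine of the axis, was under the expression filter, with at most 0.965 CPM in a library. Of the cytokine genes that fell, Il15, which supports epidermal T cells, went from 7.36, 7.74 and 5.37 to 1.04, 0.816 and 0.432 CPM (log2 fold change -3.16, SE 0.35, adjusted p = 0.000775), and Il34, the factor that maintains Langerhans cells, from 94.1, 109 and 91.98 to 29.9, 26.6 and 28.6 CPM (log2 fold change -1.79, SE 0.12, adjusted p = 0.00015). Il18, an IL-1 family cytokine made by keratinocytes, fell from 40.6, 48.3 and 34.4 to 31.8, 28.9 and 23.7 CPM (log2 fold change -0.55, adjusted p = 0.0388), a call lost without wild type library 2 or any 1 knockout library (adjusted p = 0.12, 0.051, 0.0844 and 0.145). Tslp and Il33, the epithelial alarmins of type 2 inflammation, did not pass (log2 fold changes -0.52 and 0.074).

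Interleukin receptor genes changed in both directions. Among 41 receptor genes 15 rose and 11 fell, the latter near the 23.3% of all genes tested. Il7r, known from lymphocytes, rose from 3.34, 2.62 and 3.64 to 14.5, 16.2 and 22.02 CPM (log2 fold change 2.46, adjusted p = 0.000447), and Il2ra, a receptor of activated T cells, by 2.71 (adjusted p = 0.000505). Il20rb, a keratinocyte receptor chain for the IL-20 cytokines, fell from 254, 341 and 289 to 121, 114 and 122 CPM (log2 fold change -1.31, adjusted p = 0.000702), and its partner Il20ra fell by 1.91 on the log2 scale (adjusted p = 0.00129). Il17ra, the shared receptor chain for IL-17A and IL-17F, did not pass (log2 fold change 0.28).

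Genes that IL-17 and STAT3 raise in keratinocytes rose in 15 of 21 cases and 0 fell (by DESeq2 0, by limma-voom 0, and 0 at an unadjusted p under 0.05). Zc3h12a, an RNase that limits IL-17 signals, went from 16.2, 16.1 and 19.3 to 279, 295 and 295 CPM (log2 fold change 4.08, SE 0.14, adjusted p = 1.32e-05). Nfkbiz, encoding the nuclear cofactor IκB-zeta, rose from 12.1, 14.8 and 15.1 to 171, 147 and 168 CPM (log2 fold change 3.53, SE 0.15, adjusted p = 2.15e-05). Bcl3, a related cofactor, rose from 3.11, 2.95 and 3.83 to 47.2, 49.7 and 64.3 CPM (log2 fold change 4.02, adjusted p = 5.48e-05). For all 3 each knockout library lay far above every wild type library. They were named for their small adjusted p, a choice that favours narrow spreads and separate groups. Groups failed to overlap for 58.8% of all genes tested.

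Chemokines that attract neutrophils rose from near 0 and chemokines of resting skin fell, 15 of 31 being higher and 5 lower. Cxcl2 had 0 reads in the wild type and 11.3, 12.8 and 11.4 CPM in the knockout, at least 177-fold higher (adjusted p = 0.000178). Cxcl3 had 1 read against 9.81, 22.6 and 19.1 CPM, a ratio of 776 with a 95% counting interval from 139 to 30699 (adjusted p = 0.000214). Cxcl2 and Cxcl3 could pass the expression filter only through the knockout libraries, so a rise was nearly fixed for both. Cxcr2, which encodes the receptor of both, went from 0.227, 0.278 and 0.319 to 34.9, 28.96 and 33.5 CPM (log2 fold change 6.83, SE 0.21, adjusted p = 1.32e-05). Cxcl14, a constitutive chemokine of keratinocytes, fell from 274, 171 and 231 to 108, 116 and 105 CPM (log2 fold change -1.04, SE 0.18, adjusted p = 0.00432), and Ccl27a, which draws memory T cells to skin, from 187, 118 and 116 to 56.6, 46.98 and 53.4 CPM (log2 fold change -1.42, adjusted p = 0.00218). Ackr4 and Ackr2, decoy receptors that remove chemokines, fell (log2 fold changes -2.52 and -2.45, adjusted p = 9.10e-05 and 0.00521).

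Antimicrobial genes rose in 18 of 26 cases and fell in 5 (3 without wild type library 3 or knockout library 1, 2 without knockout library 2). Lcn2, which withholds iron from bacteria, went from 2.05, 0.668 and 1.47 to 389, 342 and 387 CPM (log2 fold change 8.09, SE 0.39, adjusted p = 4.95e-05), and Slpi, an antiprotease, from 0.455, 0.557 and 0.575 to 134, 85.6 and 98.3 CPM (log2 fold change 7.61, adjusted p = 1.51e-05). Wfdc21, a secreted protein with the same inhibitor fold as Slpi, fell from 248, 207 and 163 to 13.5, 22.4 and 14.8 CPM (log2 fold change -3.61, SE 0.26, adjusted p = 0.00018). Of the 22 genes of the neutrophil list 12 were tested. Of those 10 rose and 1 fell, against 22.2% and 23.3% of all genes tested, with a median log2 fold change of 5.52. Members with almost no wild type reads could pass the expression filter only through the knockout libraries, so a rise was nearly fixed for them. Among members under the filter, the surface marker Ly6g had at most 0.163 CPM and the granule gene Camp at most 0.144 CPM in a library. Elane, another granule gene, had 1 read over the 3 knockout libraries. Without S100a8, S100a9 and Il1r2, which other cells also express, the neutrophil list took between 0.000392% and 0.00103% of TPM in wild type and between 0.00490% and 0.00603% in knockout libraries. The part of neutrophils in the S100a8 and S100a9 signal was not tested.

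T cell genes rose in 19 of 29 cases and fell in 4 (2 without wild type library 2 or knockout library 1 or 3). The list's summed share of TPM was close in both groups, at 0.0307% ± 0.00524 in wild type and 0.0317% ± 0.00528 in knockout (mean ± SD, n = 3). Icos, a costimulatory receptor of activated T cells, went from 0.0758, 0.223 and 0.511 to 17.1, 35.4 and 30.2 CPM (log2 fold change 6.597, SE 0.52, adjusted p = 0.000243), with knockout library 1 lowest. Pdcd1, encoding the inhibitory receptor PD-1, had 1 read in the wild type and 11.7, 26.8 and 20.2 CPM in the knockout, a ratio of 881 with a 95% counting interval from 158 to 34848 (adjusted p = 0.000166). With so few wild type reads Pdcd1 could pass the expression filter only through the knockout libraries, so its rise was nearly fixed. Cd3e, a chain common to T cells, did not pass (7.43, 7.29 and 6.39 CPM in wild type and 4.18, 6.69 and 5.83 CPM in knockout, log2 fold change -0.34). Prf1, encoding perforin, fell from 4.17, 8.35 and 6.26 to 0.723, 0.571 and 0.648 CPM (log2 fold change -3.26, adjusted p = 0.000672).

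Myeloid and mast cell genes changed in both directions. Retnla, a product of alternatively activated macrophages and of fat, stood at 246, 169 and 156 CPM in wild type and 4.82, 17.05 and 36.1 CPM in knockout (log2 fold change -3.296, SE 0.65, adjusted p = 0.00654). Of 21 macrophage genes 9 fell (5 without wild type library 3 and 4 without knockout library 2) and 3 rose (1 without wild type library 2 or 3 or knockout library 3, and 5 without knockout library 1). With the Y-linked share as a covariate 1 was lower and 3 were higher. Arg1, an arginase of keratinocytes and macrophages, fell from 52.7, 46.6 and 48.2 to 26.7, 20.2 and 24.04 CPM (log2 fold change -1.05, adjusted p = 0.00156). Of 12 mast cell and eosinophil genes tested 5 fell and 1 rose, against 23.3% and 22.2% of all genes tested. Without wild type library 3 or knockout library 3 only 1 fell. Mrgprb2, the mast cell receptor for cationic drugs and peptides, stood at 4.09, 6.73 and 6.004 CPM in the wild type and 0.241, 0.326 and 0.144 CPM in the knockout (log2 fold change -4.54, SE 0.38, adjusted p = 0.00032). Cd74, of the class II antigen pathway, rose from 667, 568 and 630 to 926, 796 and 924 CPM (log2 fold change 0.505, adjusted p = 0.0245), a call lost without wild type library 2 or knockout library 1 or 3 (adjusted p = 0.0731, 0.0788 and 0.101), and H2-Ab1 did not pass (log2 fold change 0.295).

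Interferon response genes mostly fell. Of 38 tested 27 fell, and 17 fell without wild type library 3. The list's median log2 fold change was -1.09, beside -0.0014 for all genes. Usp18, which turns interferon receptors off, went from 14.9, 14.7 and 13.1 to 3.38, 1.39 and 2.81 CPM (log2 fold change -2.49, SE 0.31, adjusted p = 0.00116). Ifi27l2a, an abundant target, fell from 139, 103 and 119.6 to 28.9, 15.99 and 29.3 CPM (log2 fold change -2.29, SE 0.26, adjusted p = 0.000798). With the share of Y-linked reads as covariate 14 of the list were lower. Complement genes also fell where they passed, 9 of 25, and 19 without knockout library 3. Cd55, a membrane inhibitor of complement, fell from 71.1, 88.9 and 82.7 to 19.1, 10.1 and 21.7 CPM (log2 fold change -2.25, adjusted p = 0.00115), and Cd59a, another, fell by 2.48 on the log2 scale (adjusted p = 0.000152). Cfd, encoding adipsin from fat cells, fell from 1384, 771 and 1216 to 230.4, 91.5 and 193 CPM (log2 fold change -2.71, SE 0.39, adjusted p = 0.00196).

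Sensors of microbes and cell death genes rose more often than they fell. Of 25 pattern recognition genes 12 rose and 3 fell, against 22.2% and 23.3% of all genes tested. The number that fell was 1 without wild type library 2 or 3 or knockout library 2, and 5 without wild type library 1. Nod2, a sensor of bacterial cell walls, went from 9.18, 8.74 and 10.3 to 37.5, 48.6 and 52.4 CPM (log2 fold change 2.295, adjusted p = 0.000212). Of 26 cell death genes 13 rose and 3 fell (1 without knockout library 3). Ripk3, the kinase of necroptosis, rose from 3.56, 3.395 and 3.39 to 10.4, 14.4 and 13.4 CPM (log2 fold change 1.88, SE 0.19, adjusted p = 0.00059), and Bcl2, which blocks apoptosis, fell from 12.2, 17.2 and 17.9 to 6.67, 7.01 and 6.19 CPM (log2 fold change -1.25, SE 0.19, adjusted p = 0.00259).

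**Figure D4:**
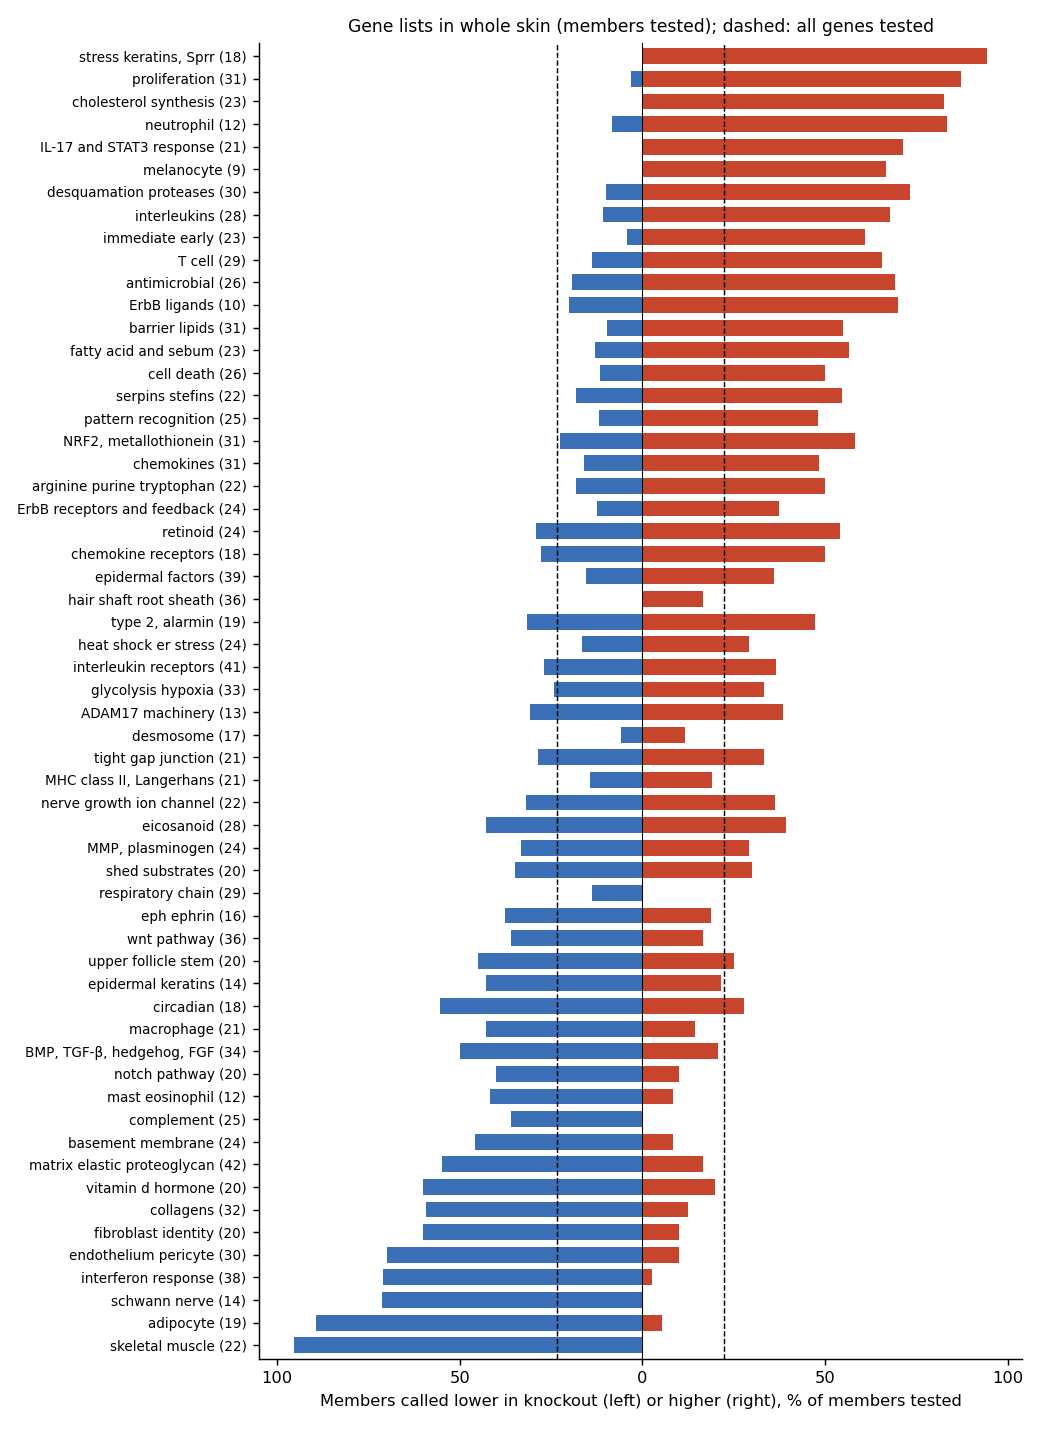
Members of each gene list called lower (blue, left) and higher (red, right) in knockout whole skin, as a percent of members tested (number in brackets); dashed lines give the percent of all genes tested that were called lower (23.3) and higher (22.2). Lists at the top (stress keratins with Sprr genes, proliferation, cholesterol synthesis) lean to higher. Lists at the bottom (skeletal muscle, adipocyte, Schwann cell, interferon response) lean to lower, and many in the middle lie near the dashed lines.

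Cell cycle genes mostly rose in whole skin. Of 31 tested 27 rose and 1 fell, with a median log2 fold change of 1.68. Kif11, a mitotic kinesin, went from 10.2, 9.13 and 8.62 to 38.9, 55.2 and 45.2 CPM (log2 fold change 2.32, SE 0.17, adjusted p = 0.000211), and Mki67, the proliferation marker Ki-67, from 32, 38.7 and 39.5 to 121, 177 and 136 CPM (log2 fold change 1.98, SE 0.18, adjusted p = 0.000392). Knockout library 2 was highest for both. Ccnd2, a D-type cyclin, fell from 141, 279 and 274 to 93.5, 72.6 and 93.1 CPM (log2 fold change -1.42, adjusted p = 0.00594), and Ccnd1 did not pass (log2 fold change -0.53), although it did without wild type library 1 (adjusted p = 0.00371). In the other 6 libraries, of epidermis, 9 of 31 of these genes rose and 7 fell, against 26.2% and 25.3% of all genes tested there. In 1 fit of all 12 libraries the skin effect was higher than the epidermis effect for 24 genes of the list and lower for 0, against 6.36% and 10.1% of the 15394 genes tested for that difference (16.5% in either direction).

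Immediate early genes, which respond to stimuli within minutes, differed from the epidermis as well. In whole skin 14 of 23 rose and 1 fell, while in epidermis 1 rose and 18 fell, and for 17 the difference between the effects passed the test, all with a higher effect in skin. Junb, an AP-1 subunit, stood at 122, 127 and 104 CPM in wild type skin and 285, 310.4 and 305 CPM in knockout skin (log2 fold change 1.35, SE 0.13, adjusted p = 0.000425). In epidermis its log2 fold change was -1.87 (SE 0.18), and the difference was 3.15 (SE 0.21, adjusted p = 0.000116). Fosb, another subunit, rose from 3.79, 4.68 and 3.705 to 20.3, 42.9 and 31.9 CPM in skin (log2 fold change 2.96), against -2.25 in epidermis (difference 5.14, adjusted p = 0.000226). Nr4a3, an orphan nuclear receptor, rose from 1.82, 1.56 and 1.02 to 13.3, 13.5 and 18.6 CPM (log2 fold change 3.37), against -1.05 in epidermis (difference 4.34, adjusted p = 0.00111). Myc, given above for skin, changed by -1.34 in epidermis (SE 0.15) and differed by 2.23 (SE 0.18, adjusted p = 0.000207). Each difference comes from 1 fit of all 12 libraries, so it is not exactly the gap between the separate fits. Epidermis and whole skin are different preparations, and the part of tissue handling in the levels of these genes was not tested. Among ErbB ligands the effect differed for 7 of 10. Hbegf is one of them, with 4.29 in skin and 0.201 in epidermis (difference 4.02, SE 0.501, adjusted p = 0.00104), whereas Btc had -3.91 and -3.64 and a difference that did not pass (adjusted p = 0.64).

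**Figure D5:**
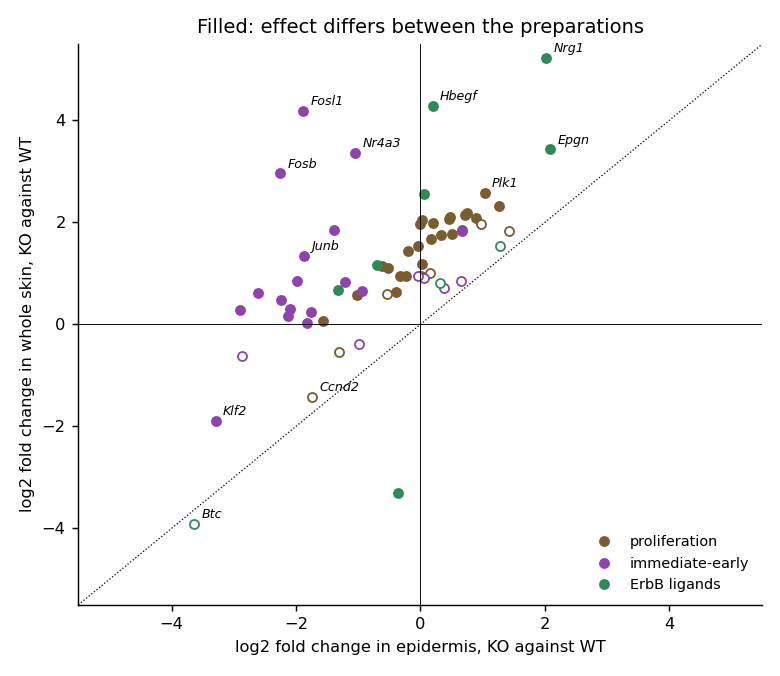
Log2 fold change (knockout against wild type) in whole skin (vertical) against epidermis (horizontal) of cell cycle, immediate early and ErbB ligand genes, with the dotted line where both are equal. Filled points passed the test of the difference; most immediate early genes lie upper left, lower in knockout epidermis but not in knockout skin, and Btc and Ccnd2 lie near the line.

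Genes of fat and vessels mostly fell. Of 19 adipocyte genes 17 fell and 1 rose. Adrb3, the adrenergic receptor of fat, stood at 15.7, 14.8 and 21.3 CPM in wild type and 0.884, 1.47 and 1.296 CPM in knockout (log2 fold change -3.81, SE 0.27, adjusted p = 0.000162). Retn, encoding resistin, fell from 59.4, 86.7 and 79.9 to 16.7, 9.54 and 14.8 CPM (log2 fold change -2.46, adjusted p = 0.000569) and Plin4, a lipid droplet protein, from 123, 149 and 201 to 41.2, 29.8 and 31.8 CPM (log2 fold change -2.204, adjusted p = 0.000554). Cidea, which sebocytes share with fat cells, rose from 50.9, 49.5 and 48.7 to 101, 142 and 95.2 CPM (log2 fold change 1.18, adjusted p = 0.00201). The list's share of TPM lay between 0.632% and 0.889% in wild type and between 0.0907% and 0.149% in knockout libraries. Endothelial and pericyte genes fell in 21 of 30 cases and rose in 3. Their share of TPM was 0.0964%, 0.0356% and 0.0592% in the wild type libraries, the order of the muscle share, and between 0.0109% and 0.0152% in knockout libraries, and the part of muscle RNA in this result was not tested. Pecam1, the endothelial adhesion molecule CD31, fell from 44.1, 38.1 and 41.8 to 19.2, 15.3 and 15.5 CPM (log2 fold change -1.31, SE 0.15, adjusted p = 0.000761), whereas Flt1, encoding VEGF receptor 1, rose from 9.78, 9.57 and 13.99 to 29.9, 38.6 and 45.6 CPM (log2 fold change 1.77, adjusted p = 0.00124), and its ligand gene Vegfa from 19.9, 12.8 and 21.2 to 35.9, 61.7 and 43.2 CPM (log2 fold change 1.39, adjusted p = 0.00607). Peripheral nerve genes fell in 10 of 14 cases, and Pmp22, a myelin protein that other cells make too, went from 99.9, 101 and 100.5 to 23.7, 24.1 and 27.5 CPM (log2 fold change -1.999, SE 0.11, adjusted p = 8.28e-05).

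Collagen genes fell in 19 of 32 cases, 11 without wild type library 3, and rose in 4 (2 without wild type library 2 or knockout library 2 or 3). The main fibrillar collagens Col1a1, Col1a2 and Col3a1 did not pass (log2 fold changes -0.405, -0.75 and -0.77), although they did without knockout library 3 (adjusted p = 0.0193, 0.0085 and 0.0137), where all 3 were lower. With replicate number as a block Col1a2 and Col3a1 fell as well (adjusted p = 0.0179 and 0.0373). Col16a1, a minor collagen of the dermis, fell from 113, 129 and 115 to 39.1, 28.2 and 39.2 CPM (log2 fold change -1.74, SE 0.16, adjusted p = 0.000408). In the wider matrix list 23 of 42 fell and 7 rose. Dpt, encoding dermatopontin, fell from 286, 378 and 389 to 52.5, 53.3 and 98.8 CPM (log2 fold change -2.36, SE 0.29, adjusted p = 0.00106). Some matrix genes rose. Cemip, which breaks down hyaluronan, went from 0.303, 0.445 and 0.447 to 5.71, 7.18 and 5.398 CPM (log2 fold change 3.89, SE 0.28, adjusted p = 0.000194), and Fbn2, the fetal fibrillin, from 0.531, 0.3896 and 0.383 to 19.7, 18.1 and 22.7 CPM (log2 fold change 5.52, SE 0.23, adjusted p = 2.15e-05). Has3, a hyaluronan synthase of the epidermis, rose from 4.09, 1.61 and 3.32 to 55.7, 92.9 and 97.96 CPM (log2 fold change 4.78, adjusted p = 0.000298). Among proteases Mmp13, a collagenase, had 0 reads in the wild type and 13.3, 4.16 and 9.36 CPM in the knockout, at least 135-fold higher (adjusted p = 0.00173), and Plaur, the urokinase receptor, rose from 1.896, 1.39 and 1.79 to 7.31, 8.08 and 9.21 CPM (log2 fold change 2.28, adjusted p = 0.000505). Mmp13 could pass the expression filter only through the knockout libraries, so its rise was nearly fixed. Of 20 fibroblast genes 12 fell, 7 without knockout library 1.

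Skeletal muscle genes fell in 21 of 22 cases, from levels that spread widely in the wild type. Without knockout library 2, 13 fell, and with the Y-linked share as a covariate 16 fell. Actn3, the actinin of fast fibres, stood at 2709.8, 348 and 965 CPM in wild type and 93.2, 25.1 and 20.4 CPM in knockout libraries (log2 fold change -4.86, SE 0.97, adjusted p = 0.00675). The depth to which skin was sampled is not given in the labels, and its part in these values was not tested. Energy metabolism shows both muscle and skin forms of the enzymes. The muscle enolase Eno3, chosen after its values were seen, stood at 3454, 333 and 879.6 CPM in wild type libraries, the order of their muscle share, and at 182, 61.5 and 35.4 CPM in the knockout (log2 fold change -4.07, adjusted p = 0.0157), a call lost without knockout library 2 or 3 (adjusted p = 0.0631 and 0.0514). The forms of other tissues went the opposite way. Eno1, the common enolase, rose from 342, 275 and 282 to 789, 1144 and 1059.7 CPM (log2 fold change 1.74, SE 0.19, adjusted p = 0.000739), Pgam1 from 159.8, 152 and 163 to 409, 586 and 531 CPM (log2 fold change 1.68, adjusted p = 0.000483), and Slc2a1, the glucose transporter GLUT1, from 46.9, 46.9 and 48.8 to 178, 346 and 272 CPM (log2 fold change 2.48, adjusted p = 0.000496). Slc16a1, which carries lactate, rose from 43.1, 32.6 and 34.9 to 129.7, 138 and 131 CPM (log2 fold change 1.85, SE 0.14, adjusted p = 0.000213). In all 11 of 33 glycolysis and hypoxia genes rose and 8 fell (5 without knockout library 2), the latter near the 23.3% of all genes tested. Of 29 respiratory chain genes 4 fell (1 without knockout library 2) and 0 rose, but 11 rose without wild type library 1, the library richest in muscle RNA. By DESeq2 0 rose, by limma-voom 0, and 0 at an unadjusted p under 0.05.

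Genes of the oxidative stress response rose in 18 of 31 cases and fell in 7. Slc7a11 (ENSMUSG00000027737.10, chromosome 3, 49892526 to 50443614, minus strand), the cystine transporter that feeds glutathione synthesis, stood at 0.379, 0.501 and 0.192 CPM in the wild type and 70.1, 53.6 and 64.6 CPM in the knockout, 169.5-fold higher with no overlap (log2 fold change 7.41, SE 0.29, adjusted p = 2.09e-05). Srxn1, sulfiredoxin, rose from 24.9, 21.7 and 24.4 to 60.6, 84.3 and 87.2 CPM (log2 fold change 1.71, adjusted p = 0.000537). Other targets of the factor NRF2 fell, Hmox1, heme oxygenase 1, from 106, 137 and 100.3 to 35.05, 28.96 and 34.3 CPM (log2 fold change -1.804, SE 0.16, adjusted p = 0.000361) and Gstm1, a glutathione transferase, from 137, 105 and 115 to 41.2, 38.3 and 41.3 CPM (log2 fold change -1.56, adjusted p = 0.00033). Of 24 heat shock and endoplasmic reticulum stress genes 7 rose and 4 fell, against 22.2% and 23.3% of all genes tested, and 1 rose and 3 fell without the knockout libraries that held Y-linked reads. Hyou1, a chaperone of the endoplasmic reticulum, rose from 69.4, 79.1 and 81.4 to 157, 148 and 148 CPM (log2 fold change 0.98, SE 0.11, adjusted p = 0.000872), and Hspb8, a small heat shock protein, fell from 552, 557 and 472 to 207, 215 and 213 CPM (log2 fold change -1.32, SE 0.13, adjusted p = 0.000467).

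Some purine and arginine enzymes rose. Aox4, an aldehyde oxidase, went from 1.896, 1.503 and 2.43 to 234, 236 and 195 CPM (log2 fold change 6.83, SE 0.22, adjusted p = 1.32e-05). Ada, adenosine deaminase, rose from 1.21, 1.34 and 1.02 to 10.4, 19.7 and 12.7 CPM (log2 fold change 3.57, adjusted p = 0.000338). Ass1, which makes argininosuccinate from citrulline, rose from 10.1, 12.7 and 12.01 to 69.6, 67.3 and 66.1 CPM (log2 fold change 2.54, SE 0.13, adjusted p = 6.99e-05), against 0.26 in epidermis (difference 2.21, adjusted p = 0.000207). Eicosanoid genes split evenly, 11 of 28 higher and 12 lower. Alox8, a lipoxygenase induced in irritated mouse skin, rose from 1.14, 1.002 and 0.894 to 232, 90.3 and 141 CPM (log2 fold change 7.25, SE 0.43, adjusted p = 9.35e-05), and Ptges, which makes prostaglandin E2, from 63.4, 90.7 and 71.9 to 234, 245 and 239 CPM (log2 fold change 1.67, adjusted p = 0.000428). Ptgs1, cyclooxygenase 1, fell from 191, 269 and 194 to 72.7, 87.4 and 86.2 CPM (log2 fold change -1.41, adjusted p = 0.0011), and Ptgs2, the inducible form, did not pass (log2 fold change 0.54).

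Hormone and clock genes fell more often than they rose. Igfbp3, which binds insulin-like growth factors, fell from 322, 325 and 333 to 66.8, 82.1 and 69.96 CPM (log2 fold change -2.16, SE 0.13, adjusted p = 8.99e-05), and Tsc22d3, the glucocorticoid target GILZ, from 469, 545 and 436 to 108, 84.7 and 103 CPM (log2 fold change -2.29, SE 0.16, adjusted p = 0.000152). In the vitamin D and hormone list 12 of 20 fell and 4 rose. Of 18 clock genes 10 fell and 5 rose (3 without knockout library 2, 2 without knockout library 3). Nr1d1, a repressor of the clock, fell from 159, 199 and 183 to 48.9, 29.7 and 39.2 CPM (log2 fold change -2.199, adjusted p = 0.000416), and Dbp, a clock output factor, from 137, 138 and 102 to 20.98, 5.63 and 9.86 CPM (log2 fold change -3.37, adjusted p = 0.00161). Clock and Cry1 rose by 0.69 and 0.72 (adjusted p = 0.0147 and 0.0129). The call of Clock was lost without knockout library 2 or 3 (adjusted p = 0.0529 and 0.0539) and that of Cry1 without knockout library 3 (adjusted p = 0.0551). The time of day of collection is not given in the labels, and its part in these values was not tested. Melanocyte genes rose in 6 of 9 cases. Tyr, the tyrosinase of pigment synthesis, went from 0.0758, 0.111 and 0.128 to 2.41, 3.997 and 2.38 CPM (log2 fold change 4.67, SE 0.43, adjusted p = 0.000408), while Mitf and Sox10, the lineage factors, did not pass (log2 fold changes -0.75 and -0.098), although Mitf was lower without knockout library 1 (adjusted p = 0.0438). Of 22 nerve growth and ion channel genes 8 rose and 7 fell, against 22.2% and 23.3% of all genes tested. The share of TPM of this list was 0.0373% in wild type and 0.0953% in knockout (means of 3 libraries). Members that fell include Gdnf, at 8.49, 12.7 and 10.8 CPM in wild type and 0.965, 1.22 and 0.864 CPM in knockout (log2 fold change -3.39, SE 0.26, adjusted p = 0.000237). Ntf3, neurotrophin 3, stood at 6.67, 7.29 and 5.62 CPM in wild type and 1.04, 0.979 and 0.504 CPM in knockout (log2 fold change -2.95, adjusted p = 0.000678).

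Some of the smallest adjusted p-values belonged to genes outside all lists. Lgi2 stood at 2.27, 2.004 and 2.68 CPM in wild type and 65.2, 67.1 and 69.5 CPM in knockout (log2 fold change 4.85, SE 0.16, adjusted p = 1.32e-05). Tdh, a threonine dehydrogenase, went from 0.303, 0.111 and 0.256 to 49.9, 54.3 and 44.1 CPM (log2 fold change 7.79, SE 0.28, adjusted p = 1.59e-05). Slc5a1, the sodium-glucose transporter SGLT1, rose from 16.8, 16.9 and 15.3 to 243, 327 and 306 CPM (log2 fold change 4.16, SE 0.16, adjusted p = 1.99e-05). Endou, an endoribonuclease, rose from 27.8, 20.4 and 26.1 to 419, 462 and 424 CPM (log2 fold change 4.14, adjusted p = 2.15e-05). In the other direction, Kcnj16, an inward rectifier potassium channel, went from 12.7, 15.3 and 16.1 to 0.241, 0.326 and 0.3599 CPM (log2 fold change -5.52, SE 0.25, adjusted p = 3.80e-05). Nnat, the imprinted gene neuronatin, fell from 43.3, 47.9 and 72.9 to 0.322, 0.245 and 0.648 CPM (log2 fold change -7.02, SE 0.38, adjusted p = 7.42e-05), and Serpina12, encoding vaspin, from 305, 402 and 266 to 11.3, 17.2 and 12.2 CPM (log2 fold change -4.58, SE 0.25, adjusted p = 7.42e-05). Scgb1a1, a secretoglobin, went from 10.2, 11.8 and 6.83 CPM to 3 reads in all over the knockout, a ratio of 129 with a 95% counting interval from 43.99 to 629.8. The groups did not overlap for any of these genes, which their choice by small adjusted p favours. Among all genes tested 58.8% showed no overlap.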

How the data were processed

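Poly(A) RNA of whole skin was sequenced with a stranded kit, per the labels' protocols. The submitters' processing notes name bcl2fastq 2.17, STAR 2.5.1, RSEM and the build mm10. The deposited gene tables hold RSEM's expected counts (estimated reads per gene, of which between 9.00% and 9.98% were not whole in a library) and deposited TPM values (each transcript's share of the library, corrected for length). Gene names came from GENCODE M21 (GRCm38), which matched 47224 of 47643 identifiers, 39106 of them with the same version.

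Expected counts were rounded, scaled by TMM and filtered with edgeR's filterByExpr, and tested with edgeR 4.0.16 (quasi-likelihood test, Benjamini-Hochberg threshold 0.05) in R 4.3.3. Where a gene had 0 reads in 1 group its fold was set against 3 reads over that group, and with 1 to 3 reads a ratio with an exact 95% counting interval is given. Floors and intervals cover counting error only. Genes with so few reads in 1 group could pass the filter only through the other group, so the direction of their call was nearly fixed. The difference from epidermis was tested as an interaction over 12 libraries. DESeq2 1.42.0, limma-voom (limma 3.58.1), size factors by RLE, a replicate block, a covariate and left-out libraries were alternatives. On simulated data of 14906 genes, 92.4% of the genes changed 4-fold (200 drawn, those past the filter) were recovered. They were drawn from genes above 1 CPM and changed equally in both directions, whereas 45.5% of genes were called in the data. The simulation therefore does not show how reliable the calls are here.

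Replicate numbers in the titles pair the samples by their data only: same-numbered libraries of the 2 genotypes deviated together (r = 0.34, 0.35 and 0.25 across genes), although 2 of the 6 other pairs did so too (0.10 and 0.16). Libraries of 1 group differed beyond sampling noise, so all were kept as replicates. Named genes are Adam17, the 12 largest gains and 12 largest losses in TPM, up to 4 called members per list and direction with the smallest adjusted p and at least 1 CPM, list members whose uncalled values are described, the epidermal differentiation complex with its 3 largest changes each way, 5 genes with the smallest p of the difference from epidermis, and up to 10 genes per direction outside the lists with at least 5 CPM. Members and gene lists were chosen with earlier results of these data known. Values of a few list members are not reported here, although the list counts include them.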

Additional observations from a re-analysis of the deposited data

Results flagged for a closer look

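The effect of the genotype differed between whole skin and epidermis for 2539 of 15394 genes by the interaction test of edgeR (adjusted over all of them), 979 with a higher effect in skin and 1560 with a lower one. The 5 list members with the smallest adjusted p of that difference follow, each on the log2 scale as the effect in skin minus that in epidermis. Junb, an AP-1 subunit, differed by 3.15 (adjusted p = 0.000116). Cd36, a fatty acid receptor of fat cells, endothelium and keratinocytes, differed by -5.32 (adjusted p = 0.00014), with -0.50 in skin and 4.74 in epidermis. Its skin call was lost when any 1 library other than wild type library 1 was left out, and with the replicate block (adjusted p = 0.0571). Myc differed by 2.23 (adjusted p = 0.000207), and Ass1 by 2.21 (adjusted p = 0.000207). Pglyrp4, a peptidoglycan recognition protein encoded within the epidermal differentiation complex, differed by 2.98 (adjusted p = 0.00021), with 2.24 in skin and -0.82 in epidermis. By list, the effect differed for 17 immediate early genes, 24 cell cycle genes and 7 ErbB ligand genes, against 16.5% of all genes tested.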

How the results depend on the processing

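Counts of called genes in whole skin held within 1.5 times except for sex-linked settings. Without the knockout libraries with Y-linked reads 2658 genes were called, 1379 higher and 1279 lower, on 1 knockout library that is assumed to vary like the others. With the Y-linked share as covariate 4680 were called, 2270 of them lower. Adam17 lost its call in both (log2 fold change -0.63, adjusted p = 0.17, and -0.58, adjusted p = 0.0858). Leaving out 1 library gave between 4944 and 7770 calls, 2400 to 3779 higher and 2540 to 3991 lower, Adam17 between -0.88 and -0.64 with every call kept, and between 1397 (without knockout library 2) and 3940 (without wild type library 1) genes whose effect differed from epidermis, with 1436 without wild type library 3. The replicate block gave 6796 calls, 2104 differences from epidermis and -0.74 for Adam17. It changed the call of Cd36, Col1a2, Col3a1 and Errfi1 and of no other named gene. DESeq2 called 6998 genes and limma-voom 6703. Of the 221 named genes called, DESeq2 and RLE size factors kept all 221, the Y-linked covariate 204, and the fit with 1 knockout library 178, and no direction reversed under any of the 15 alternatives. Depth limits calls of genes below about 0.239 CPM, the level of 3 reads in the shallowest library.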
